A study of Sus scrofa with 2 samples.

Results

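miR-132 and miR-212 are a pair of related microRNAs (miRNAs, small RNAs that repress the messenger RNAs they pair with) made from neighbouring hairpins. They were followed here in pig testis before and after sexual maturity. Members were all sequence tags that the deposited lists name miR-132 or miR-212 in any species, with or without a mark for the arm. The 30-day list held 72 such tags among 82288, and the 180-day list held 41 among 28643. They fell into 4 miRNA arms among the 1308 miRNAs named in either list after entries of the same miRNA were merged. The samples were whole testes of Junmu-1 boars, a white Chinese breed, sexually immature at 30 days and sexually mature at 180 days. No treatment or genetic change is named. Each age is represented by 1 library from the pooled RNA of 3 boars, which leaves no replicate spread and no test between the ages. Every interval below is a 95% interval for counting error alone and compares these libraries.

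Gonadotropins, the pituitary hormones that drive the testis and ovary, act on their target cells largely through cyclic AMP and the transcription factor CREB. The miR-132 and miR-212 hairpins are transcribed together from a locus that CREB can activate. They are known as miRNAs induced by luteinizing hormone in ovarian granulosa cells, by corticotropin in the adrenal gland and by activity in neurons. No hormone level was among the data. In the RefSeq annotation of Sscrofa11.1, MIR132 and MIR212 are listed next to each other with no gene between them, and their nearest listed neighbours are OVCA2 and HIC1.

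Each hairpin gives a 5p arm and a 3p arm. The tag most read over both libraries is printed for each arm, 5′ to 3′ as DNA letters from the deposited lists. The seed (bases 2 to 8, the part that pairs with targets) is in capitals, because it sets the 5p arms apart and is shared by the 3p arms:
miR-132-3p: tAACAGTCtacagccatggtcgt
miR-212-3p: tAACAGTCtccagtcacggcca
miR-132-5p: aACCGTGGctttcgattgtta
miR-212-5p: aCCTTGGCtctagactgcttact
The 3p arms of miR-132 and miR-212 share the seed AACAGTC, and no other entry named in the lists had it. Counted from the 5′ end of the mouse entries, the 3p arms were identical over the first 9 bases and at 17 of 22 bases in all. They differed by A10C, C14T, T17C, T20C and G22A, the miR-132 base first. The 5p arms did not share a seed. Compared position by position without gaps, the human miR-132 and dog miR-212 entries were identical at 14 of 22 bases. These entries differ in length, at 22 and 23 nucleotides, so an alignment with a gap could match more bases. No tag holding bases 4 to 18 of one of these 4 entries was listed under another name. The names did not separate the arms of miR-212: the dog entry called miR-212 is the 5p arm, while the human and mouse entries of that name are the 3p arm, so arms were assigned by entry sequence. The tags named for a pufferfish and a macaque miR-212 entry, 1 read each, were kept under 3p.

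Both arms of both miRNAs took a larger share of the miRNA reads in the 180-day library, while per read of the whole library, at the lowest totals that the tag numbering allows, all 4 ratios fell below 1. Abundance is given as RPM, the count scaled by the library's miRNA-matched reads, of which there were 7525725 at 30 days and 852209 at 180 days. A count of 0 would allow up to 3 reads, or 0.399 RPM in the 30-day and 3.52 RPM in the 180-day library. The numbering of the tags put the miRNA-matched reads at no more than 59.2% of the 30-day and 7.08% of the 180-day library. At these lowest totals each ratio would be multiplied by 0.120 per read of the whole library, a log2 shift of -3.06. Both totals are lower bounds, so the factor formed from them neither estimates nor bounds the true one. The TMM scaling of edgeR shifted every log2 ratio by -0.92 and median-of-ratios scaling by -1.0. In whole tissue, fewer cells of a type and less RNA per cell cannot be told apart.

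miR-132-3p, the arm usually taken as the active one, had 276 reads (36.7 RPM) at 30 days and 73 reads (85.7 RPM) at 180 days. At the depth of the 180-day library the 30-day reads would correspond to 31.3. Its RPM ratio, 180-day over 30-day, was 2.34 (1.78 to 3.03). It stayed above 1 with TMM scaling, at 1.23, and median-of-ratios scaling, at 1.17, but both intervals then included 1, and it was 0.279 per read of the whole library. The arm ranked 206th of the 1111 miRNAs with reads at 30 days and 188th of 850 at 180 days.

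miR-132-5p, the arm the lists mark with a star as the rarer one, had 82 reads (10.9 RPM) at 30 days and 73 reads (85.7 RPM) at 180 days. Its ratio was 7.86 (5.66 to 10.9), and its rank went from 287th to 189th. At 180 days this arm tied with miR-132-3p at 73 reads, and tied miRNAs were ranked by name. The ratio stayed over 2-fold with TMM scaling, at 4.15, and was 0.940 (0.676 to 1.30) per read of the whole library, an interval that included 1. The star arm, rarer at 30 days, was thus read as often as the 3p arm at 180 days.

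miR-212 was the scarcer of the pair in both libraries. miR-212-3p, which shares the miR-132-3p seed, had 47 reads (6.25 RPM) at 30 days and 19 reads (22.3 RPM) at 180 days, a ratio of 3.57 (1.98 to 6.20). miR-212-5p had 11 reads (1.46 RPM) and 6 reads (7.04 RPM), a ratio of 4.82 (1.46 to 14.2). At these counts the intervals of the miR-212 ratios were wide, and that of miR-212-3p contained the ratio of miR-132-3p. Per read of the whole library the ratios were 0.427 (0.237 to 0.742) for miR-212-3p and 0.576 (0.175 to 1.70) for miR-212-5p.

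**Figure D1:**
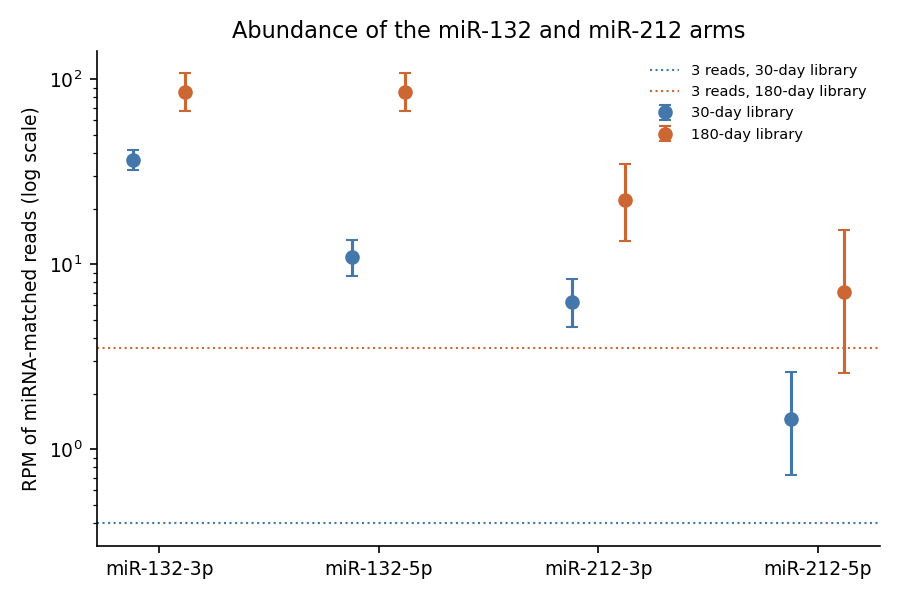
RPM of each arm (log scale) in the 30-day and the 180-day library; points are the single library of each age, bars are exact 95% counting intervals and dotted lines mark 3 reads. All 4 arms sit higher in the 180-day library on this scale of miRNA-matched reads (per read of the whole library, at the lowest totals, all 4 ratios were below 1), and the 2 miR-132 arms coincide at 85.7 RPM at 180 days.

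The order of the arms was miR-132-3p, miR-132-5p, miR-212-3p and miR-212-5p at 30 days, where the RPM intervals of neighbours did not overlap (32.5 to 41.3, 8.67 to 13.5, 4.59 to 8.30 and 0.730 to 2.62). At 180 days the miR-132 arms had the same count, and the intervals of miR-212-3p (13.4 to 34.8 RPM) and miR-212-5p (2.58 to 15.3 RPM) overlapped. With both arms added, miR-132 went from 358 to 146 reads, a ratio of 3.60 (2.95 to 4.38), and miR-212 from 58 to 25, a ratio of 3.81 (2.28 to 6.18). All reads of the pair together came to 55.3 and 200.7 RPM, and their ratio of 3.63 (3.02 to 4.35) was 0.434 (0.361 to 0.520) per read of the whole library. Within a library, where no scaling enters, miR-132 outnumbered miR-212 by 6.17 to 1 (4.67 to 8.29) at 30 days and 5.84 to 1 (3.80 to 9.32) at 180 days. For the 3p arms alone these read ratios were 5.87 (4.30 to 8.18) and 3.84 (2.29 to 6.74). Without tags that carry a mismatch they were 3.74 and 4.8 for both arms, which turns the order of the ages, and 2.71 and 2 for the 3p arms. This filter treats the 2 miRNAs unlike. It drops the miR-132-3p tag that ends in 1 more T (103 and 19 reads), listed with 1 mismatch. It keeps the miR-212-3p tag that ends in 1 more T (9 and 2 reads), listed with 0 mismatches. Without tags of 1 read the ratios for both arms were 8.05 and 8.31, which turns the order too. With all tags, the proportion of the neighbouring hairpins differed between the libraries by less than counting error, with an odds ratio of 1.06 (0.609 to 1.79) for miR-212 against miR-132 at 180 over 30 days.

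A miRNA was called higher when its ratio was 2 or more and its interval excluded 1, and lower at a ratio of 0.5 or less with an interval excluding 1. Of the 432 miRNAs that reached 20 reads in the libraries combined, 134 were called higher, or 31.0%, and 51 lower, or 11.8%. The 3 arms that passed this read minimum, miR-132-3p, miR-132-5p and miR-212-3p, were each called higher, while miR-212-5p, with 17 reads in all, did not pass it. Being higher was thus common among miRNAs. By ratio miR-132-5p ranked 37th, miR-212-3p 82nd and miR-132-3p 119th of the 432, so that 8.33%, 18.8% and 27.3% of them had a larger ratio. With TMM scaling, where 16.0% of the 432 were higher and 32.9% lower, only miR-132-5p of these 3 was still called higher, as it was with median-of-ratios scaling (36.3% of the 432 lower and 14.8% higher). Per read of the whole library, where 83.6% of the 432 were called lower and 5.79% higher, miR-132-3p and miR-212-3p were called lower and miR-132-5p neither.

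**Figure D2:**
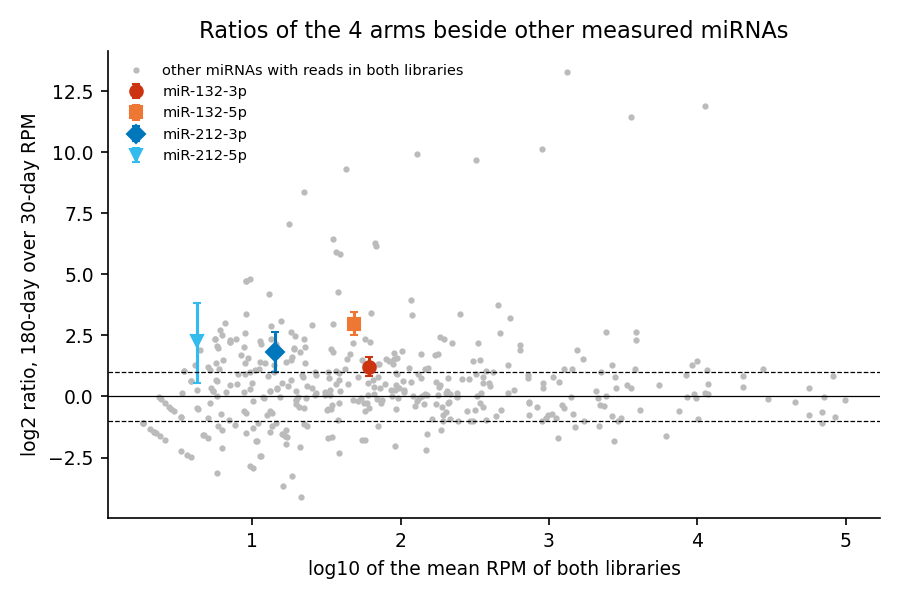
log2 RPM ratio, 180-day over 30-day (vertical axis) against the log10 mean RPM of both libraries; grey points are other miRNAs with 20 or more reads in all and reads in both libraries, coloured points are the 4 arms with exact 95% intervals, and dashed lines mark 2-fold. The 4 arms lie above the upper dashed line on this scale, miR-132-5p highest at 2.97, and each would move down by 3.06 per read of the whole library at the lowest totals.

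The miRNAs whose ratio was nearest to that of miR-132-3p, among 157 others with 100 or more reads in each library, were miR-509-5p, miR-425 and miR-497. Likeness was the absolute difference of log2 ratios over 2 libraries, which is a weak measure. miR-509-5p, of a testis-expressed cluster, had 5385 and 12977 RPM, a ratio of 2.41 and a difference of 0.05. The differences were 0.05 for miR-425 and 0.06 for miR-497, a miRNA of the miR-15/16 family.

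The arms of miR-132 differed in proportion between the libraries, and this share does not depend on the scaling. The 5p arm held 82 of the 358 miR-132 reads at 30 days, or 22.9% (18.7 to 27.6%), and 73 of 146 at 180 days, or 50% (41.6 to 58.4%). The 3p arm held the remaining 77.1% (72.4 to 81.3%) and 50%. The intervals of the libraries did not overlap, the shares were 27.1 points apart, and the odds of a 5p against a 3p read were 3.36 times as high at 180 days (2.19 to 5.16). For miR-212 the 5p arm held 11 of 58 reads at 30 days, 19.0% (9.87 to 31.4%), and 6 of 25 at 180 days, 24.0% (9.36 to 45.1%). That odds ratio was 1.34 (0.355 to 4.68), which neither shows a difference nor excludes one of the size seen in miR-132.

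The same share was computed for every precursor with 2 named arms and 50 or more reads in each library. Of these 114 precursors, 1, or 0.877%, differed by 20 points or more in the share of its less read arm, and that 1 was miR-132. The next in size was miR-151, whose 5p arm went from 39.0 to 19.1%, a difference of -19.9 points. The next in the upward direction was miR-362, whose 3p arm went from 36.0 to 51.7%. A count by points favours precursors whose less read arm holds a large share. In proportion, the less read arms of several other precursors rose more than miR-132-5p, so miR-132 stands alone in points only. Among them were miR-335 (2.79 to 16.4%), miR-92b (6.45 to 16.5%), miR-15b (0.802 to 2.91%) and let-7b (0.0717 to 0.302%). These precursors were named after their values were seen. miR-212 had too few reads at 180 days to enter this count. The miR-132 shares were moved by dropping all tags with a mismatch, to 40.6% at 30 days and 68.8% at 180 days for the 5p arm, and the gap between the libraries remained.

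**Figure D3:**
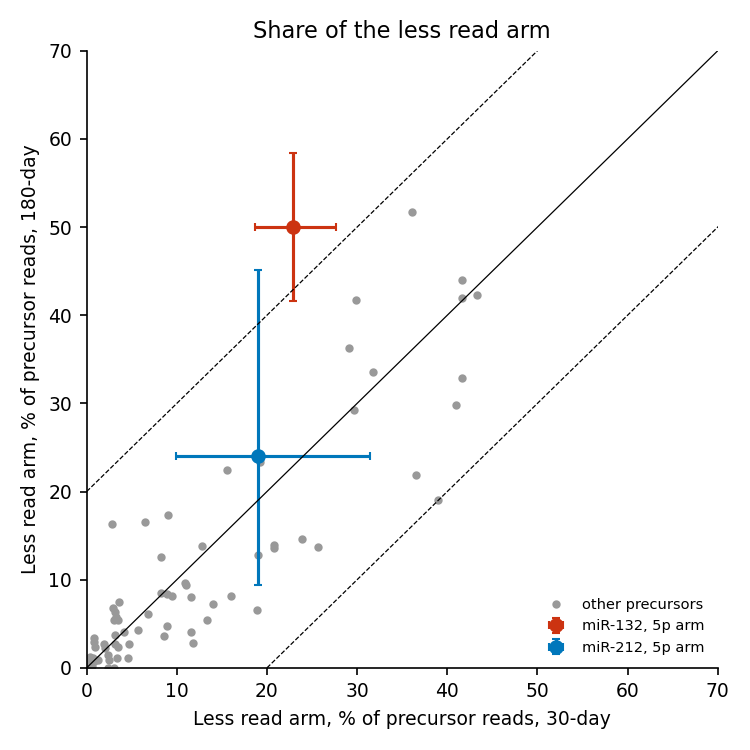
Share of the less read arm in its precursor's reads at 30 days (horizontal axis, %) and at 180 days (vertical axis, %); grey points are other precursors with 50 or more reads in each library, coloured points the 5p arms of miR-132 and miR-212 with exact 95% intervals, the solid line marks equal shares and the dashed lines 20 points. miR-132, at 22.9% and 50%, lies above the upper dashed line, and the miR-212 interval crosses the line of equal shares.

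Most miR-132-5p reads did not start where the human entry starts. The 3 most read miR-132-5p tags are shown with the seed that each would carry, because the start decides the seed:
entry start, 22 nucleotides: aCCGTGGCtttcgattgttact
1 base earlier, 21 nucleotides: aACCGTGGctttcgattgtta
1 base earlier, 20 nucleotides: aACCGTGGctttcgattgtt
The earlier start, with the seed ACCGTGG in place of CCGTGGC, was carried by 53 of 82 reads at 30 days, 64.6% (53.3 to 74.9%), and by 59 of 73 at 180 days, 80.8% (69.9 to 89.1%). Neither seed was found in another listed entry. The odds of the earlier start were 2.29 times as high at 180 days (1.04 to 5.23), and the intervals of the shares overlapped. A leading start other than that of the entry was seen in 9 of the 164 miRNAs with 500 or more reads at 30 days and in 3 of 84 at 180 days.

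The 21-nucleotide tag accounted for most of the difference in miR-132-5p. It had 25 reads (3.32 RPM) at 30 days and 47 reads (55.2 RPM) at 180 days, a ratio of 16.6 (10.0 to 28.1). For the 20-nucleotide tag, shorter by the last A, the reads were 22 and 6 and the ratio 2.41 (0.799 to 6.12). For the tag with the entry start they were 19 and 11, with a ratio of 5.11 (2.20 to 11.3). All tags of 21 nucleotides together made up 34.1% (24.0 to 45.4%) of the arm at 30 days and 68.5% (56.6 to 78.9%) at 180 days. Among reads with the earlier start, those ending at base 20 of the entry made up 56.6% (42.3 to 70.2%) and 89.8% (79.2 to 96.2%). The 3′ end of the 5p arm was therefore the more uniform in the 180-day library, by intervals that did not overlap. Per read of the whole library at the lowest totals each ratio is multiplied by 0.120. The 20-nucleotide tag and the tag with the entry start would then lie below 1 and the 21-nucleotide tag above it. The interval of the tag with the entry start would include 1.

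The 3p arm of miR-132 kept its start and varied at its 3′ end. The entry start held 90.2% (86.1 to 93.5%) of its reads at 30 days and 90.4% (81.2 to 96.1%) at 180 days, beside medians of 96.0% and 96.6% for the leading start over the miRNAs of at least 500 reads. Its 4 most read tags differed only in their last bases:
mouse entry: tAACAGTCtacagccatggtcg
1 T more: tAACAGTCtacagccatggtcgt
1 A more: tAACAGTCtacagccatggtcga
shortened: tAACAGTCtacagccatggt
The most read tag, 1 T longer than the mouse entry, had 103 reads at 30 days and 19 at 180 days, and the mouse entry's own sequence had 85 and 18. Against the dog entry to which the lists matched it, the longer tag differs by C23T, which the lists count as a mismatch. The genomic bases that follow the arm were not analysed here, so a templated base and an added one cannot be told apart.

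Reads ending in T alone after the last matched base of the mouse entry made up 49.3% (43.2 to 55.3%) of miR-132-3p at 30 days and 39.7% (28.5 to 51.9%) at 180 days. The median share of such reads, measured against each miRNA's most read perfectly matched tag, was 5.17% (quartiles 1.82 to 13.5%) over 156 miRNAs at 30 days and 5.86% (1.85 to 13.7%) over 79 at 180 days. Reads ending in A alone made up 6.16% (3.63 to 9.68%) and 12.3% (5.80 to 22.1%) of miR-132-3p, beside medians of 6.98% and 9.04%. The odds ratios between the libraries, 0.679 (0.386 to 1.18) for T and 2.14 (0.801 to 5.35) for A, had intervals that included 1. The shortened tag of 20 nucleotides went from 11 to 10 reads, 1.46 to 11.7 RPM, a ratio of 8.03 (3.06 to 20.8), against 1.63 (0.943 to 2.67) for the tag with 1 T more and 1.87 (1.06 to 3.14) for the mouse entry's sequence. Per read of the whole library at the lowest totals all 3 would lie below 1, but the interval of the shortened tag would include 1.

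**Figure D4:**
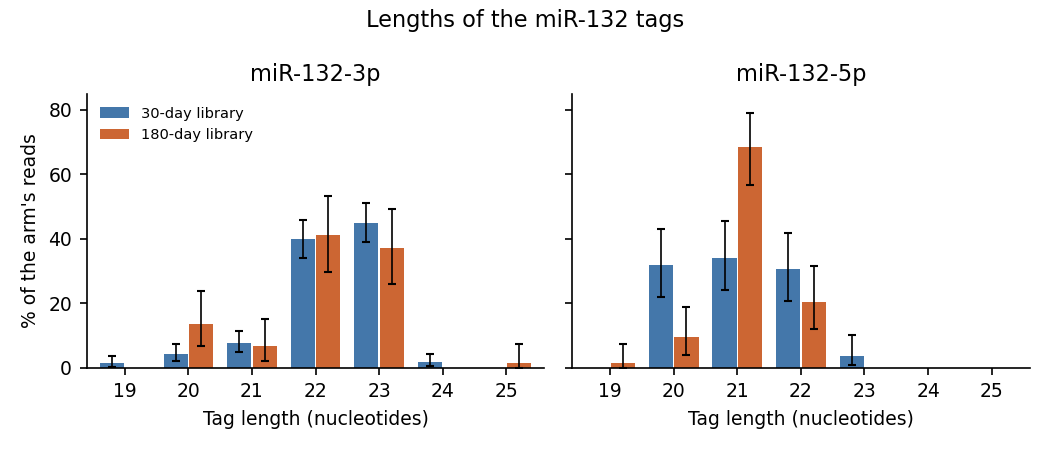
Share of an arm's reads (%) by tag length in nucleotides, for miR-132-3p (left) and miR-132-5p (right), in the 30-day and 180-day libraries; error bars are exact 95% counting intervals. At 21 nucleotides the miR-132-5p bars stand at 34.1% and 68.5%, while the miR-132-3p bars at 22 and 23 nucleotides have overlapping intervals.

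miR-212-3p showed a different leading tag in each library, on few reads. They are printed because the 180-day form carries 2 more A than the mouse entry:
mouse entry: tAACAGTCtccagtcacggcca
2 A more: tAACAGTCtccagtcacggccaaa
The mouse entry's sequence had 22 reads at 30 days and 4 at 180 days, and the longer tag had 0 and 5. Reads ending in A alone after their last matched base were 1 of 47 at 30 days, 2.13% (0.0539 to 11.3%), and 6 of 19 at 180 days, 31.6% (12.6 to 56.6%). The 30-day read was a shortened tag with A after base 20, while the 6 reads at 180 days ran through all 22 bases of the entry. The odds ratio of 20.1 had an interval from 2.15 to 997, and the tag was singled out after its counts were seen. The entry start was carried by 44 of 47 and 18 of 19 reads. All 11 and 6 reads of miR-212-5p had the start of the dog entry, and its most read tag, of 23 nucleotides, had 7 and 3.

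Other miRNAs linked to gonadotropins or to steroid synthesis were called in both directions. Of 12 measured arms of such miRNAs, 4 were called higher and 2 lower and the median log2 ratio was -0.11, beside 134 and 51 of 432 and a median of 0.26 over all miRNAs measured. With TMM scaling 2 were higher and 6 lower, beside 69 and 142 of the 432. Per read of the whole library 0 were higher and 10 lower, beside 25 and 361. The 4 higher arms were miR-145, miR-145*, miR-383 and miR-122, and the 2 lower ones miR-320a and miR-455-5p. The lists overlap: both arms of miR-145 also serve below as smooth muscle markers, and miR-150 is also in the immune list. miR-383, known from granulosa cells and spermatogenesis, stood at 63.9 and 846 RPM, a ratio of 13.2 (11.8 to 14.9), and miR-122, a liver miRNA also linked to the fall of luteinizing hormone receptor messenger RNA in the ovary, at 21.3 and 217 RPM, a ratio of 10.2 (8.22 to 12.7). These 2 were named after their values were seen. The most read members were miR-320a at a ratio of 0.325 (0.313 to 0.338), miR-21, which luteinizing hormone also induces in granulosa cells, at 0.983 (0.959 to 1.01), miR-125a-5p at 0.544 (0.503 to 0.588) and miR-145 at 3.72 (3.53 to 3.91).

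miR-132 and miR-212 are also known from neurons and from immune cells, and these lists were set beside them. Of 9 measured arms of neuron-linked miRNAs, 4 were called higher and 0 lower, and the median log2 ratio was 0.53, beside 31.0% higher, 11.8% lower and a median of 0.26 over all miRNAs measured. The higher arms were those of miR-9 and miR-129 only, and the other 5 were called neither. miR-128, the most read member of the neuron list, had a ratio of 1.17 (1.12 to 1.23), miR-129-3p of 15.5 (12.2 to 19.9), miR-137 of 1.04 (0.669 to 1.55) and miR-9* of 72.5 (41.5 to 137). Of 6 measured arms linked to immune cells, 2 were higher and 1 lower, near those shares, and the median was 0.06. miR-146a had a ratio of 4.59 (3.98 to 5.27), miR-142-5p of 1.14 (0.911 to 1.41), miR-150 of 0.836 (0.599 to 1.14) and miR-155 of 0.435 (0.172 to 0.921). Per read of the whole library at the lowest totals, 2 of the 9 and 0 of the 6 were called higher and 5 of each lower, beside 25 higher and 361 lower of the 432.

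Markers of several cell types differed between the libraries, as shares of miRNA reads. Over all 432 miRNAs measured, 31.0% were called higher and 11.8% lower. Germ cell markers of meiotic and later stages, the arms of miR-34b, miR-34c and miR-449a, were called higher in 5 of 5 cases, and their sum went from 11.2 to 34835 RPM. The sum of the neuron markers miR-9, miR-9* and miR-124 went from 11.7 to 280 RPM, with 2 of 3 called higher. The arms of miR-202, a marker of gonadal soma, went from 68481 to 110872 RPM in sum, but in opposite directions. miR-202* went from 59374 to 104917 RPM and miR-202 from 9107 to 5955 RPM. The arms of miR-199a and miR-214, mesenchymal markers, went from 110694 to 61157 RPM in sum. None of these 6 arms of miR-202, miR-199a and miR-214 was called higher or lower, and miR-214* had 0 reads at 180 days. Sums went from 6581 to 17994 RPM for smooth muscle (miR-143 and miR-145, 3 of 4 higher), from 381 to 629 RPM for endothelium (miR-126, 0 of 2), from 1535 to 3774 RPM for red blood cells (miR-451, 1 of 1) and from 124 to 162 RPM for white blood cells (miR-142 and miR-223, 1 of 3). Of the remaining markers, miR-142* and miR-223* had too few reads to be measured and miR-223* had 0 at 180 days. The part of these cell types in the miR-132 and miR-212 values was not tested.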

How the data were processed

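Per the labels' protocols, testis RNA of 3 boars was pooled per age, small RNA was cut from a gel, ligated, amplified and read on an Illumina 1G analyser; no molecular identifier is named, so repeated reads may be copies of 1 molecule. The authors deposited per library a list of distinct tags with the raw read count, sequence and matched miRNA entry of each, and lengths, base counts and an alignment score that the tie check below used. Which aligner, miRBase release and build were used is not given in the sources used here.

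Counts were summed by deposited name and, within a name, by the entry sequence nearest to each arm. Other entries were merged by name within 4 edits, or when identical over 17 bases with a shift of up to 3 unless a species names both. The fruit fly entry miR-9a, of the same sequence as mammalian miR-9, was counted as miR-9. Ratios have exact conditional and shares exact Clopper-Pearson 95% intervals (scipy 1.17.1), odds ratios exact conditional ones. Tag starts and ends were placed on the mouse, human or dog entry without gaps. TMM came from edgeR 4.0.16. Tag numbers were read as ranks by falling count, an inference from counts that never rise with the number, and missing tags were given the count of the next listed one. The code was tested on simulated data.

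Members, lists and tests were chosen with earlier results of these data known. Named were the 4 arms, miRNAs sharing their seeds, the 3 with the nearest ratio, up to 4 of the most read of each list, and cell type markers; others are marked in the text. Alternatives changed tags, scaling, read minimum and the treatment of tied tags.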

Additional observations from a re-analysis of the deposited data

How the results depend on the processing

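The ratios of the 4 arms and of the sums kept their direction under every alternative run except scaling per read of the whole library at the lowest totals. There the ratios were 0.279 for miR-132-3p, 0.940 for miR-132-5p, 0.427 for miR-212-3p, 0.576 for miR-212-5p, 0.431 for miR-132, 0.455 for miR-212 and 0.434 for the pair, all by a common factor. With TMM scaling they were 1.23, 4.15 and 1.88 for the first 3 arms, 1.90 for miR-132, 2.01 for miR-212 and 1.92 for the pair, and under median-of-ratios scaling 1.17, 3.92, 1.78, 1.80, 1.90 and 1.81. The ratio of miR-212-5p was 2.54 (0.772 to 7.50) with TMM and 2.40 (0.730 to 7.09) under median-of-ratios scaling, intervals that included 1. For miR-212-3p the interval was 1.04 to 3.27 with TMM, and 0.987 to 3.09 under median-of-ratios scaling, which included 1. Without tags that carry a mismatch, the miR-132 ratio was 4.75, that of the pair 4.53, the 5p share of miR-132 40.6% at 30 days and 68.8% at 180 days, and miR-132 outnumbered miR-212 by 2.71 (30 days) and 2 (180 days) for the 3p arms and by 3.74 (30 days) and 4.8 (180 days) for both arms. That setting drops the miR-132-3p tag with 1 T more, which the lists match with 1 mismatch. It keeps the miR-212-3p tag with 1 T more, which the lists match with 0 mismatches. Dropping tags of 1 read left all 25 results within their intervals, dropping the tags of the pufferfish and macaque entries, chosen after seeing the data, all 17, and splitting tied tags all 4 arms. Without tags of 1 read, miR-132 outnumbered miR-212 by 8.05 (30 days) and 8.31 (180 days) for both arms, which turns the order of the ages.

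Of the 432 miRNAs measured, 134 were called higher and 51 lower. These became 69 and 142 with TMM, 64 and 157 under median-of-ratios scaling, and 25 and 361 per read of the whole library. With 100 or more reads, 75 were higher and 43 lower of 297, and with no minimum 243 and 51 of 1308. Of the gonadotropin list, 2 were higher and 6 lower with TMM, 2 and 7 under median-of-ratios scaling, and 0 and 10 per read of the whole library. For the immune list these were 1 and 2, 1 and 3, and 0 and 5, and for the neuron list 2 and 5 per read of the whole library. With 1 library per age, no paired analysis was possible because there are no replicates to pair, and none could be left out. miR-212, at 25 reads in the 180-day library, limits every comparison of the pair.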
